A study of Homo sapiens with 16 samples.

Results

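Cells of the human neuroblastoma line SK-N-AS, chosen by their counts of 6 genes of the integrated stress response, were compared with cells in which none of these genes was counted. The summed count of TRIB3, DDIT3, HERPUD1, ASNS, CHAC1 and SESN2 in a cell is called S. Among cells with a total of at least 1500 counts, 50 had an S of 2 or more and form group A, the stress response positive cells. Another 295 had an S of 0 and form group B, the negative cells. Group A is 8.29% of the 603 cells measured and 11.6% of the 431 cells of sufficient total. The other 86 cells of sufficient total had an S of 1 and belong to neither group. The 6 genes chose the groups, so their levels are a description, and all comparisons concern other genes.

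The cells came from 16 labelled samples of untreated SK-N-AS cells, cultured in RPMI1640 medium with fetal calf serum and sorted singly into plates. RNA was measured with MARS-seq, a plate-based single-cell method in which each well carries its own barcode. The deposited columns are named by barcode and show no sample, so all cells were treated as 1 pool without replicates. A and B are therefore both groups of untreated cells of the same line, which samples each drew on is unknown, and no test between them was possible.

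The integrated stress response is a pathway in which stress-sensing kinases phosphorylate the translation factor eIF2, which slows protein synthesis and raises translation of the transcription factor ATF4. ATF4 and its target CHOP, the product of DDIT3, switch on genes for amino acid supply, redox balance and feedback. One of the kinases, PERK, senses unfolded protein in the endoplasmic reticulum (ER), where the ATF6 and IRE1 branches of the unfolded protein response act beside it and raise ER chaperones. TRIB3 encodes a pseudokinase that restrains ATF4 and CHOP, ASNS makes asparagine, CHAC1 degrades glutathione and SESN2 restrains mTORC1. HERPUD1 serves the disposal of misfolded ER proteins and is known as a target of both ATF4 and the ER-specific branches.

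Promoters of 3 of the 6 genes and of 3 ER chaperones are printed to show which known stress elements they carry, because the results turn on these gene groups. All 6 printed promoters were chosen among those that held a match. The sequences are the 250 bases before the gene's start in RefSeq (build GRCh38.p14), 5′ to 3′ on the gene's strand. Capitals mark matches on either strand to 3 elements. These are CARE (TGATGNAA), bound by ATF4 with its partners, ERSE (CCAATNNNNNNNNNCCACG) and ERSE-II (ATTGGNCCACG), which ATF6 and XBP1 use.
HERPUD1, chr16:56931892-56932141, plus strand: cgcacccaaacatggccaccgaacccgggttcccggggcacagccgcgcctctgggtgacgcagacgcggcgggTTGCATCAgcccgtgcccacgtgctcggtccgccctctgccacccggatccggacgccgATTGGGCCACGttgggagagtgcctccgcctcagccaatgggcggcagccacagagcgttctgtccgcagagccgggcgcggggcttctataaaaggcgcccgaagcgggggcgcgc
ASNS, chr7:97872409-97872658, minus strand: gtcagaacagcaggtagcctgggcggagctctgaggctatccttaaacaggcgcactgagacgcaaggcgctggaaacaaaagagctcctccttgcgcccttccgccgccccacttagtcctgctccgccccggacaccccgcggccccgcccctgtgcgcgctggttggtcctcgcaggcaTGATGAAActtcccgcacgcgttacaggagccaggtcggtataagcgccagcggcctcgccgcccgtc
CHAC1, chr15:40953221-40953470, plus strand: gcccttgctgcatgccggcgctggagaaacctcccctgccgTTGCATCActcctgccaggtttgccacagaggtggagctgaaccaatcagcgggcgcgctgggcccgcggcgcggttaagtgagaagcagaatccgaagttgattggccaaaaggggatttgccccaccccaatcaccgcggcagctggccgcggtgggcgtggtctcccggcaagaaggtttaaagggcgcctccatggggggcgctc
HSPA5, chr9:125241344-125241593, minus strand: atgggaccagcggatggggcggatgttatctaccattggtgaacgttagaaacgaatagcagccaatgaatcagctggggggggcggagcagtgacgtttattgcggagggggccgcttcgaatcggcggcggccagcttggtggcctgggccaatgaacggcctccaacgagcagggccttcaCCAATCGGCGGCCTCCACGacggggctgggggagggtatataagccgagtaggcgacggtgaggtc
HSP90B1, chr12:103930160-103930409, plus strand: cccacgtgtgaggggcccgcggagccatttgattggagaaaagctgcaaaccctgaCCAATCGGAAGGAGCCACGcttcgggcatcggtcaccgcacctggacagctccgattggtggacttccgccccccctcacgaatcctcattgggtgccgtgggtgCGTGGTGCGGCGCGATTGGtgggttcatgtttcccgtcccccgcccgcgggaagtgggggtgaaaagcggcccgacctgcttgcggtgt
HYOU1, chr11:119057206-119057455, minus strand: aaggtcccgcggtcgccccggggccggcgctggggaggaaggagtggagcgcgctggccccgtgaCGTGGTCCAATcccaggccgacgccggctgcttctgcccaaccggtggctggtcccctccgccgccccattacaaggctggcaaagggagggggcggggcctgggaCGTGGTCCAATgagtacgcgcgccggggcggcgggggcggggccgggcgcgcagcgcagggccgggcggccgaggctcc

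HERPUD1 held 1 CARE match at positions -176 to -169 from the start and 1 ERSE-II match at -117 to -107. ASNS held a CARE match at -68 to -61 and CHAC1 one at -209 to -202. HSPA5 held an ERSE match at -66 to -48, HSP90B1 had ERSE matches at -194 to -176 and -89 to -71, and HYOU1 had ERSE-II matches at -185 to -175 and -79 to -69. No printed matches overlap each other. In windows of 300 bases, which add the 50 bases from the start, 3 of the 6 genes had a CARE match against 3.62% of all 35116 RefSeq promoters. TRIB3, DDIT3 and SESN2 had no match to any of the 3 elements. Of 18 ER chaperone genes with a promoter in the table, 8 had ERSE or ERSE-II and 0 had CARE. Among all promoters 0.0769% had ERSE and 0.0541% had ERSE-II. A gene was counted if any of its promoters had a match, whereas the shares over all promoters are of single promoters. Of the 10 amino acid transporter genes with a promoter, 5 had CARE, as had 5 of 12 aminoacyl-tRNA synthetase genes. Of 12 serine, glycine and one-carbon genes with a promoter, 2 had it. A match shows that the letters are there and says nothing of binding in these cells.

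Group A held 205510 counts and group B 832245. Cells of A had totals of 1529 to 42404 (median 2571.5) and cells of B 1502 to 9989 (median 2475). One cell of A stood far apart in depth. Its 42404 counts were 20.6% of the group's counts, and the next deepest cell of A had 12719. Results that rest on it are given with and without it, except for list values at an S of 3 or more, which include it. The columns form 2 sets of barcodes, of 316 and 287 columns, with 239 barcodes in both, and A had 25 cells in each set. In A, 2 cells shared their barcode with each other and 22 had a barcode that a B cell also carried. VIM, a marker of mesenchymal neuroblastoma cells, had 1223 counts in A and 4480 in B. The sympathetic genes DBH and TH had 0 and 1 counts over both groups. A list of 25 genes of the adrenergic (sympathetic) neuroblastoma state was not empty, with 310 counts in A, 1428 in B and 2 genes at 0. Marker lists of Schwann cell precursor, adrenal cortex, endothelial and immune cells, of 10 to 13 genes each, had 8 to 10 genes at 0. Their counts summed to 2 to 18 in A and 25 to 63 in B. The fibroblast marker list of 10 genes, with 2 at 0, was counted in both groups, with 237 counts in A and 1054 in B. Its most abundant gene, THY1, had 101 and 500 of them. Erythroid markers were at 0 in both groups, which at a limit of 3 counts allows up to 14.6 CPM (counts scaled to a fixed group total) in A and 3.60 CPM in B.

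**Figure D1:**
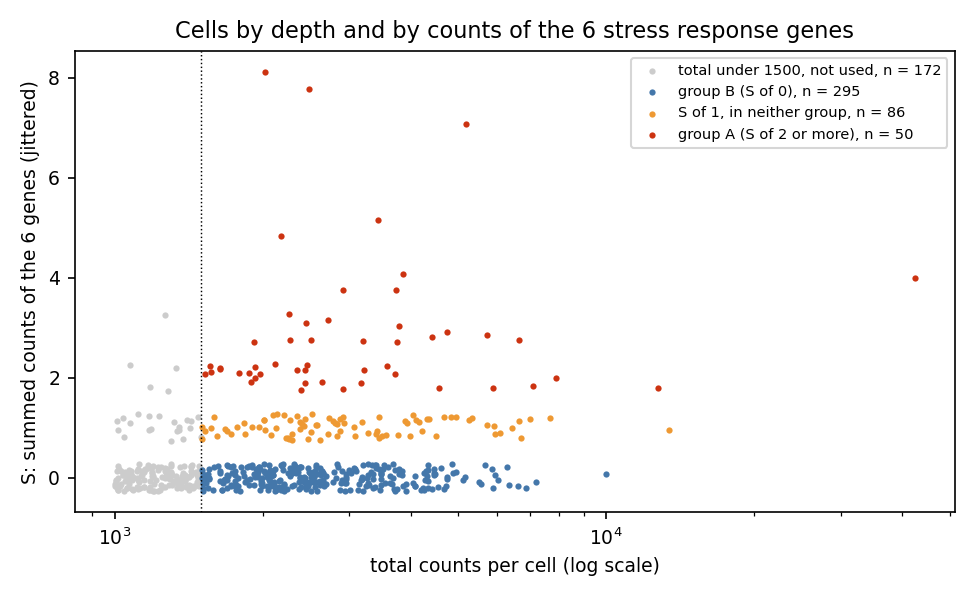
Summed counts of the 6 stress response genes (S, vertical axis, jittered) against the total counts of each cell (horizontal log axis); each point is 1 of 603 cells, and the dotted line is the minimum total of 1500. Apart from the cell of 42404 counts, cells of group A lie between 1529 and 12719 counts and cells of group B between 1502 and 9989.

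Within group A, TRIB3 had 46 counts in 26 of the 50 cells, HERPUD1 42 in 23, ASNS 27 in 22 and DDIT3 24 in 18. SESN2 had 4 counts and CHAC1 had 1, so those genes added little to S. Most positive cells lay at the threshold. An S of 2 was found in 28 cells, 3 in 13, 4 in 4, 5 in 2, 7 in 1 and 8 in 2. In 17 cells all counts of S came from a single gene, which was HERPUD1 in 9 of them, while 24 cells had counts of 2 of the genes, 7 of 3 and 2 of 4. TRIB3 and ASNS were found together in 13 cells and TRIB3 and HERPUD1 in 10. Just outside the threshold, the 86 cells with an S of 1 had ASNS in 33 cells, TRIB3 in 20, DDIT3 in 14 and HERPUD1 in 13. When every cell was thinned at random to 1500 counts, 25 of the 50 cells kept an S of 2 or more, 15 had 1 and 10 had 0. Membership of a single cell is thus loose at this depth, and an S of 0 says only that no count was seen.

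Outside the 6 genes, 3533 genes had at least 50 counts in A and B together, and these were compared by the log2 ratio of their CPM in A over that in B. Intervals in parentheses are 95% counting intervals, which cover counting error only and not the differences between cells. By at least 1.5-fold, 307 of these genes (8.69%) were higher in A and 317 (8.97%) were lower. The median log2 ratio was -0.0023. The interval lay above 0 for 222 genes and below 0 for 201. Of the genes past 1.5-fold, 49.2% were higher, or 38.5% without the deepest cell. These shares are the background for the gene groups below.

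ER chaperones and folding enzymes were higher in the stress response positive cells. These proteins fold newly made secretory and membrane proteins inside the ER. Their summed level was 7966 CPM in A and 5212 CPM in B, a log2 ratio of 0.61 (0.53 to 0.69), and 0.60 (0.51 to 0.69) without the deepest cell. Of the 19 genes, 14 reached 50 counts. All 14 lay above 0, 8 (57.1%) were at least 1.5-fold higher and 0 were lower by that much, against backgrounds of 8.69% and 8.97%. The interval lay above 0 for 11 of them. Their median log2 ratio was 0.73, compared with -0.0023 over all genes compared. Without the deepest cell, 7 remained past 1.5-fold.

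HSP90B1 (GRP94), the ER member of the HSP90 family, had 144 counts in A and 281 in B, or 701 and 338 CPM. Its log2 ratio was 1.05 (0.75 to 1.35), and 1.23 without the deepest cell. At 1500 counts per cell, 58.0% (43.2 to 71.8, exact Clopper-Pearson) of A cells had a count of it, against 35.3% (29.8 to 41.0) of B cells. The difference was thus spread over many cells of A. HYOU1, a large ER chaperone, was higher by 1.22 (0.64 to 1.79), MANF, a secreted ER stress protein, by 1.14 (0.52 to 1.75), and SDF2L1, which works with HSPA5, by 0.88 (0.26 to 1.48). HSPA5 (BiP), the central chaperone of the ER lumen, had 66 counts in A and 117 in B and a log2 ratio of 1.19 (0.73 to 1.64). The deepest cell alone supplied 27 of its counts in A, and the ratio was 0.77 (0.21 to 1.30) without it.

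The protein disulfide isomerases, which form and rearrange disulfide bonds, were graded. PDIA3 was higher by 1.30 (0.57 to 2.01), PDIA4 by 0.80 (0.56 to 1.04) and P4HB by 0.47 (0.30 to 0.64), while PDIA6 had a log2 ratio of 0.37 (-0.30 to 1.00). DNAJB11, a co-chaperone of HSPA5, had 0.65 (0.03 to 1.25), but 0.47 (-0.27 to 1.14) without the deepest cell. PPIB, a prolyl isomerase, had 0.45 (0.11 to 0.79). The lectin chaperone CALR had the most counts, 422 in A and 1298 in B, and a log2 ratio of 0.40 (0.24 to 0.56), and its membrane-bound relative CANX had 0.41 (-0.05 to 0.85). Without CALR the summed ratio was 0.69 (0.60 to 0.79), so it did not rest on the most abundant member. The genes under 50 counts were ERP44, DNAJC3, DNAJB9, SIL1 and TXNDC5, with 1 to 11 counts each in A.

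**Figure D2:**
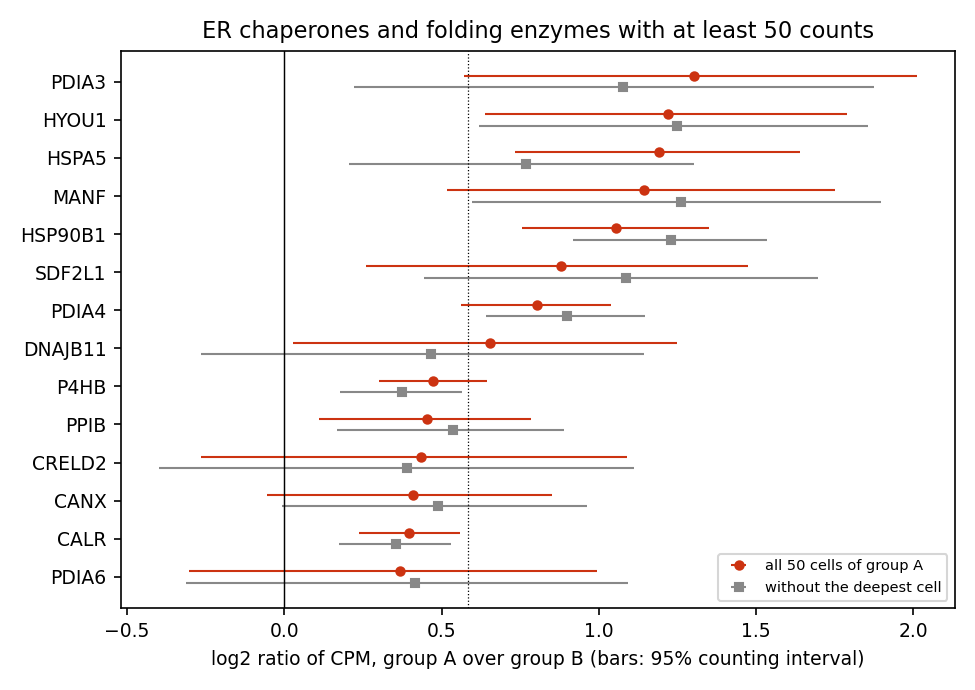
Log2 ratio of CPM in group A over group B for the 14 ER chaperones and folding enzymes with at least 50 counts, with 95% counting intervals, for all 50 cells of A (red circles) and without the deepest cell (grey squares). The dotted line marks 1.5-fold; all 14 red points lie right of 0, and HSPA5 moves most without the deepest cell.

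The summed ER chaperone level was also higher with S in cells that the grouping did not use as positive, but the median cell with an S of 1 held as many of these counts as that of B. Cells with an S of 1, whose median total was 2796, stood 0.25 (0.17 to 0.33) above B. Among the 172 cells with totals under 1500, the 26 with any count of the 6 genes stood 0.37 (0.14 to 0.59) above the 146 with none. In these shallow cells the sum rested on CALR (63 and 268 counts), P4HB (63 and 258), PDIA4 (24 and 101) and CANX (16 and 26), whereas HSP90B1 had 6 and 51, HSPA5 2 and 15 and HYOU1 1 and 11. At a common 1500 counts, a B cell held 0 to 32 counts of the list with a median of 7. A cell of A held 1 to 48 with a median of 11, so the groups overlapped widely. The median was 7 at an S of 1, 9.5 at an S of 2 and 12.5 at an S of 3 or more. Above the median of B lay 66.0% of cells in A, 45.3% at an S of 1 and 44.1% in B itself. PDIA4 stood at 586 CPM at an S of 0, 759 at 1, 814 at 2 and 1188 at 3 or more, or 1443 without the deepest cell. SDF2L1 did not rise further past an S of 2, with 198 CPM at 2 and 148 at 3 or more. Without the deepest cell the latter was 194 CPM, level with an S of 2. HSPA5 was not graded either, with 141 CPM at an S of 0, 160 at 1 and 154 (84 to 258) at 2. Only at an S of 3 or more was it higher, at 454 CPM, or 347 without the deepest cell.

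The ER difference was seen in both barcode sets, at 0.69 in set 1 and 0.56 in set 2. Within 4 equal blocks of the column order, which are no groups of the study, it ranged from 0.10 (-0.13 to 0.33) in the first, with 8 cells of A, to 0.94 (0.78 to 1.09) in the second, with 16. The third had 0.77 and the fourth 0.54. This range is far wider than the counting interval of the pooled value.

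**Figure D3:**
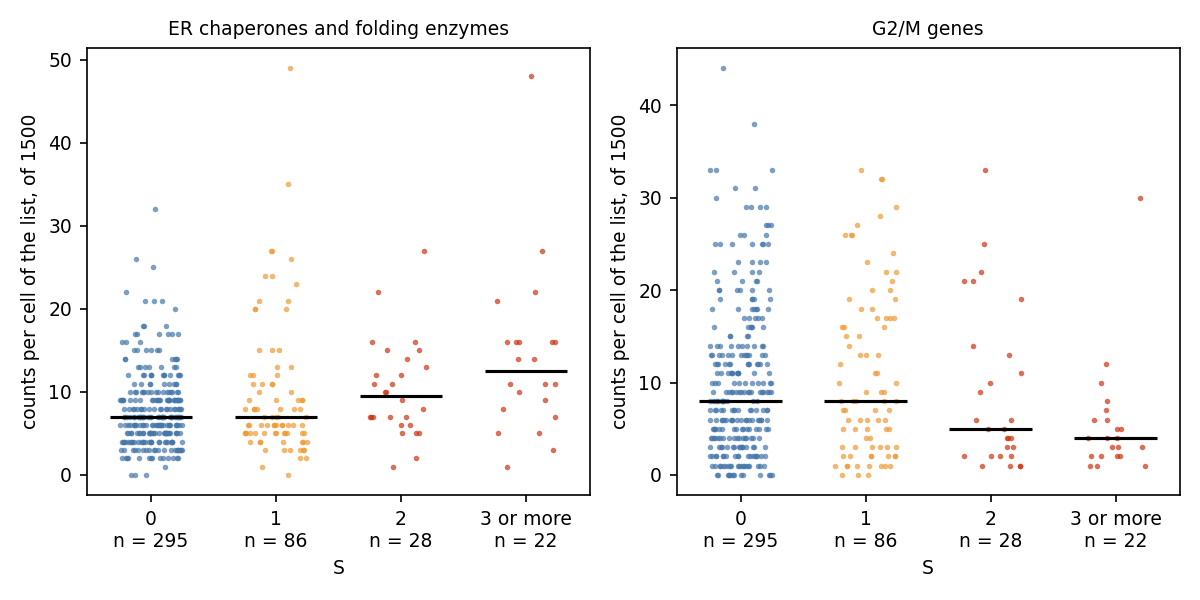
Counts per cell of the ER chaperone list (left) and of the G2/M list (right) after thinning every cell to 1500 counts, by S; each point is a cell and the black bars are medians. The ER median goes from 7 at an S of 0 to 12.5 at 3 or more, and the G2/M median from 8 to 4.

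Other ER genes differed less. A list of unfolded protein response sensors, ER-associated degradation and translocation genes stood at 0.21 (0.07 to 0.35), and at 0.15 (-0.01 to 0.30) without the deepest cell. Of its 13 genes compared, 2 were at least 1.5-fold higher and 1 lower. SEC62, a subunit of the translocation machinery, had 0.97 (0.32 to 1.60), UBE2J1, an ER ubiquitin-conjugating enzyme, 0.60 (-0.13 to 1.28), and the translocon-associated SSR1 -0.79 (-1.98 to 0.23). The stress sensor ATF6 itself had 0.02 (-0.79 to 0.76). Chaperones outside the ER were not higher as lists in A. The cytosolic heat shock list stood at -0.16 (-0.23 to -0.08) with 0 of 15 genes past 1.5-fold in either direction, and HSPA8 and HSP90AB1 both had -0.21. The mitochondrial chaperone and protease list stood at 0.01 (-0.17 to 0.19), with 3 of 9 genes at least 1.5-fold higher and 1 lower. In the shallow cells it stood at 0.66 (0.25 to 1.05). Within it the protease LONP1, known as an ATF4 target, had 0.71 (0.10 to 1.29).

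The wider set of ATF4 targets differed by less than the ER genes. Summed over 5 lists it stood at 0.12 (0.04 to 0.20), with 7251 CPM in A and 6676 in B. Without ASS1, its most abundant gene, it stood at 0.22 (0.13 to 0.30). Of the 36 genes compared, 11 (30.6%) were at least 1.5-fold higher and 3 (8.33%) lower, with a median of 0.30. Without the deepest cell these counts were 8 and 1. Per cell at 1500 counts, A held 2 to 26 counts of these genes with a median of 11, and B held 2 to 24 with a median of 10. The sum was 0.00 (-0.07 to 0.08) for cells with an S of 1. Against 50 B cells matched to the A cells on total it was 0.04. Within A, the 28 cells with an S of 2 stood at 6228 CPM (5726 to 6763), not above the 6676 of B. The 22 cells with an S of 3 or more, among them the deepest cell, stood at 8062 CPM (7550 to 8599).

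Amino acid transporters, which import the substrates that the pathway responds to, were higher as a list by 0.59 (0.31 to 0.87), and by 0.58 without the deepest cell. All 3 genes compared were at least 1.5-fold higher, or 2 of them without the deepest cell. SLC1A5, the glutamine carrier, had 60 counts in A and 146 in B, a ratio of 0.74 (0.28 to 1.18). SLC3A2, the heavy chain shared by several exchangers, had 0.70 (0.14 to 1.24), and SLC7A1, a cationic amino acid carrier, 0.59 (-0.33 to 1.45), or 0.25 (-0.91 to 1.26) without the deepest cell. SLC7A11, the cystine carrier, had only 7 and 14 counts. The list was also higher at an S of 1, by 0.37 (0.11 to 0.63). In the shallow cells it stood the other way, at -1.03 (-2.20 to -0.05), where SLC1A5 had 1 and 41 counts.

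Aminoacyl-tRNA synthetases, which charge tRNAs, stood at 0.18 (0.06 to 0.30), with 4 of 17 genes at least 1.5-fold higher and 1 lower. The threonine enzyme TARS was higher by 1.30 (0.73 to 1.86), with 45 and 74 counts, and the alanine enzyme AARS by 0.73 (0.03 to 1.40). LARS had -0.63 (-1.64 to 0.26) and KARS -0.34 (-0.68 to -0.00). TARS was not higher at an S of 1, where its ratio was -0.15. The serine, glycine and one-carbon list stood at -0.24 (-0.43 to -0.06), at -0.16 (-0.36 to 0.03) without the deepest cell and at 0.15 (-0.12 to 0.40) without ASS1, so its sign was carried by that gene. ASS1, its most abundant gene, which makes argininosuccinate in arginine synthesis, had 138 and 841 counts and -0.59 (-0.86 to -0.33). PYCR1, a proline synthesis enzyme, had 0.68 (0.10 to 1.24), but 0.47 (-0.22 to 1.11) without the deepest cell.

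Among other targets of ATF4 and CHOP, the death receptor gene TNFRSF10B (DR5), a known CHOP target, had 35 counts in A and 63 in B. It was higher by 1.17 (0.53 to 1.79), and by 1.08 without the deepest cell. STC2, a secreted glycoprotein, had 0.85 (0.01 to 1.64), GADD45A, a growth arrest gene, 0.68 (-0.12 to 1.44), and TRIM11 -0.92 (-2.44 to 0.31). EIF4EBP1, a translation repressor, had -0.21 (-0.61 to 0.17). The whole list stood at 0.23 (0.04 to 0.43), and 8 of its 33 genes reached 50 counts. The regulators of the pathway had intervals that reached 0. ATF4 mRNA, in a row shared with 2 short RNA names, had 14 and 62 counts and -0.13 (-1.08 to 0.72). PPP1R15A (GADD34), which reverses eIF2 phosphorylation, had 0.52 (-0.25 to 1.25), and CEBPB -0.39 (-1.53 to 0.60). Only 4 of the 11 regulators reached 50 counts, and differences in them were not detectable at this depth. The eIF2 kinase and subunit list stood at 0.14 (-0.04 to 0.31), or at 0.20 (0.01 to 0.39) without the deepest cell.

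**Figure D4:**
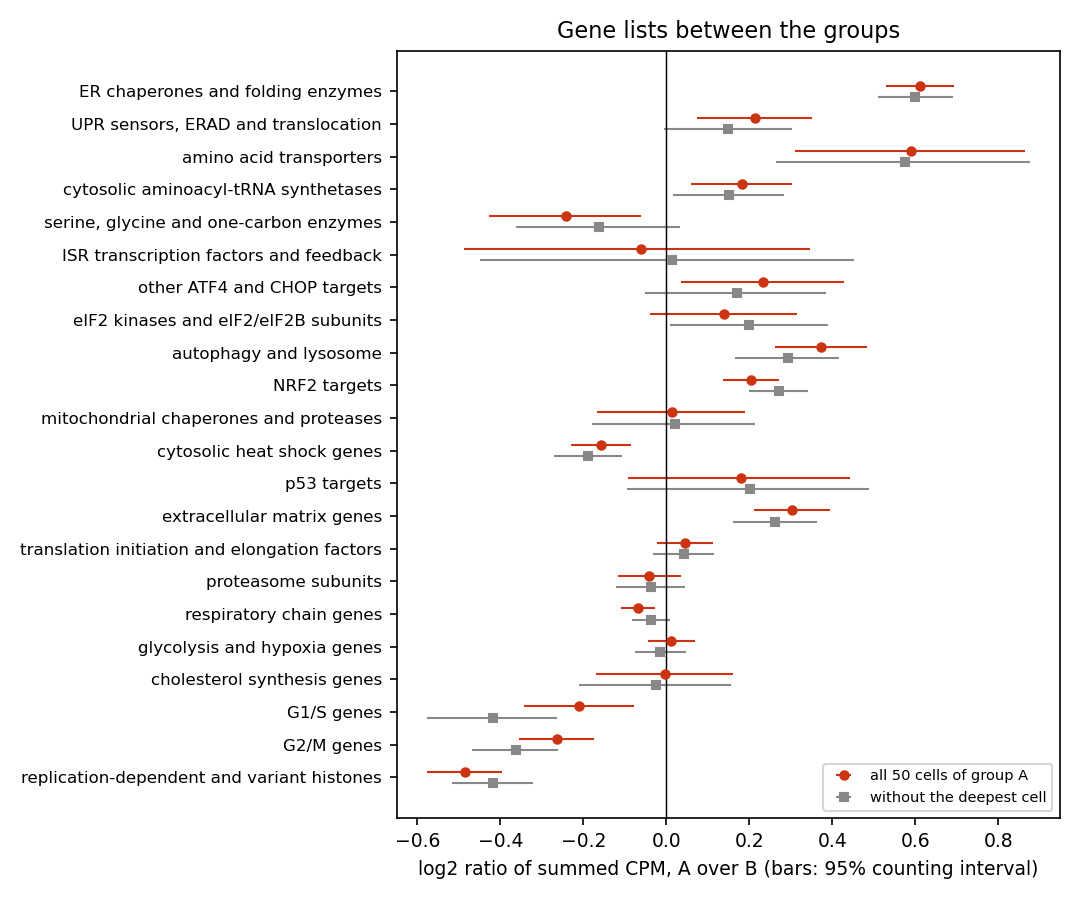
Log2 ratio of summed CPM in group A over group B for 22 gene lists, with 95% counting intervals, for all 50 cells of A (red circles) and without the deepest cell (grey squares). With all cells, ER chaperones (0.61) and amino acid transporters (0.59) stand farthest right and histones (-0.49) farthest left.

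Of the other stress programs, the autophagy and NRF2 lists, which share SQSTM1, were moderately higher as sums. The p53 targets stood at 0.18 (-0.09 to 0.44) and glycolysis and hypoxia genes at 0.01 (-0.04 to 0.07). The autophagy and lysosome list stood at 0.37 (0.26 to 0.48), and at 0.29 without the deepest cell, with 11 of 13 genes above 0, 2 at least 1.5-fold higher and 1, ATG12 (-0.79, -2.07 to 0.29), lower. CTSL1, a lysosomal protease, had 0.73 (0.34 to 1.10) and SQSTM1 (p62), an autophagy receptor, 0.50 (0.25 to 0.73). ATG3, an autophagy conjugating enzyme, had 1.22 (0.33 to 2.08), but 0.48 without the deepest cell. The antioxidant list of NRF2 targets stood at 0.20 (0.14 to 0.27), with 10 of 12 genes above 0 and 2 (16.7%) at least 1.5-fold higher. MAFG, a partner of NRF2, had 0.86 (0.11 to 1.56), the redox enzyme SRXN1 0.70 (0.03 to 1.33) and NQO1 0.36 (0.07 to 0.64). Extracellular matrix genes, whose products pass through the ER, stood at 0.30 (0.21 to 0.39), with SPARC at 0.22 (0.05 to 0.39). COL3A1 had 1.02 (0.39 to 1.62), but 0.39 without the deepest cell. In the shallow cells the matrix list stood at -0.10 (-0.35 to 0.15).

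Cell division genes were lower in the stress response positive cells, though unevenly. Replication-dependent and variant histones, made chiefly in S phase, stood at -0.49 (-0.58 to -0.40). HIST1H4C had 384 and 2662 counts and -0.77 (-0.93 to -0.62), or -0.56 (-0.72 to -0.40) without the deepest cell. The G2/M list, of genes for mitosis, stood at -0.26 (-0.36 to -0.17), and at -0.36 (-0.47 to -0.26) without the deepest cell. Of its 26 genes compared, 0 were at least 1.5-fold higher and 3 (11.5%) lower, a share near the background of 8.97%, or 0 and 5 without the deepest cell. The proliferation marker MKI67 had -0.61 (-1.12 to -0.14), the chromatin protein HMGB2 -0.47 (-0.69 to -0.26) and BIRC5 (survivin) -0.39 (-0.77 to -0.02). At 1500 counts per cell, the median G2/M count was 4 in A, with a range of 1 to 33, and 8 in B, with a range of 0 to 44. Within A, the 28 cells with an S of 2 had a median of 5. Their pooled level was 6812 CPM (6286 to 7370), close to the 6948 of B. The 22 cells with an S of 3 or more, among them the deepest cell, had a median of 4 and 4970 CPM (4570 to 5396). Histones stood at 6393 CPM at an S of 2, 5040 at 3 or more and 7900 in B. The G1/S list stood at -0.21 (-0.34 to -0.08), and at -0.42 without the deepest cell, with MCM2, of the replicative helicase, at -1.06 (-1.85 to -0.35).

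In cells with an S of 1, histones stood at -0.11 (-0.18 to -0.04) and the G1/S list at -0.12 (-0.23 to -0.0029), but the G2/M list at 0.07 (-0.01 to 0.14). In the 4 blocks of the column order it ranged from 0.39 (0.20 to 0.58) in the first to -1.23 (-1.50 to -0.98) in the second, and histones ranged from 0.32 to -0.86 in the same 2 blocks. The first block was also where the ER ratio was smallest. In the shallow cells G2/M stood at -0.50 (-0.76 to -0.25) and G1/S at 0.06 (-0.27 to 0.38), while histones stood at -0.12 (-0.32 to 0.08).

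The groups were not the same for each of the 6 genes. Cells with a count of HERPUD1 (36 cells of any S) stood 0.76 (0.66 to 0.86) above B in ER chaperones, and those with DDIT3 (32 cells) 0.62 (0.52 to 0.71). Cells with TRIB3 (46) stood at 0.39 (0.30 to 0.48) and cells with ASNS (55) at 0.35 (0.27 to 0.44). The 22 cells with HERPUD1 and none of the other genes stood at 0.83 (0.71 to 0.96). The 100 cells with any of the other 5 genes and no HERPUD1 stood at 0.29 (0.22 to 0.36), and at 0.24 without the deepest cell. The 9 cells with SESN2 stood at 0.01 (-0.26 to 0.26). Within group A, the 23 cells with HERPUD1 had an ER ratio of 0.86 (0.74 to 0.97), and the 27 without it 0.46 (0.36 to 0.56), or 0.37 (0.24 to 0.49) without the deepest cell.

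For G2/M genes, HERPUD1 cells stood at -0.57 (-0.70 to -0.44), DDIT3 cells at -0.16 (-0.26 to -0.06), TRIB3 cells at -0.11 (-0.20 to -0.02) and ASNS cells at -0.04 (-0.13 to 0.04). The 9 SESN2 cells stood the other way, at 0.61 (0.43 to 0.79). In group A, cells with HERPUD1 stood at -0.73 (-0.91 to -0.57) and those without it at -0.07 (-0.17 to 0.04). Histones were lower both with and without HERPUD1, at -0.42 (-0.57 to -0.28) and -0.52 (-0.63 to -0.41). The summed ATF4 targets stood at 0.17 for HERPUD1 cells, 0.13 for TRIB3 cells, 0.09 for DDIT3 cells and 0.09 for ASNS cells. Of the 6 genes, only HERPUD1 had both a CARE and an ERSE-II match in its promoter window. Any link between these matches and the ratios of its carriers was not tested. The cell groups overlap and share B, and their differences were not tested.

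**Figure D5:**
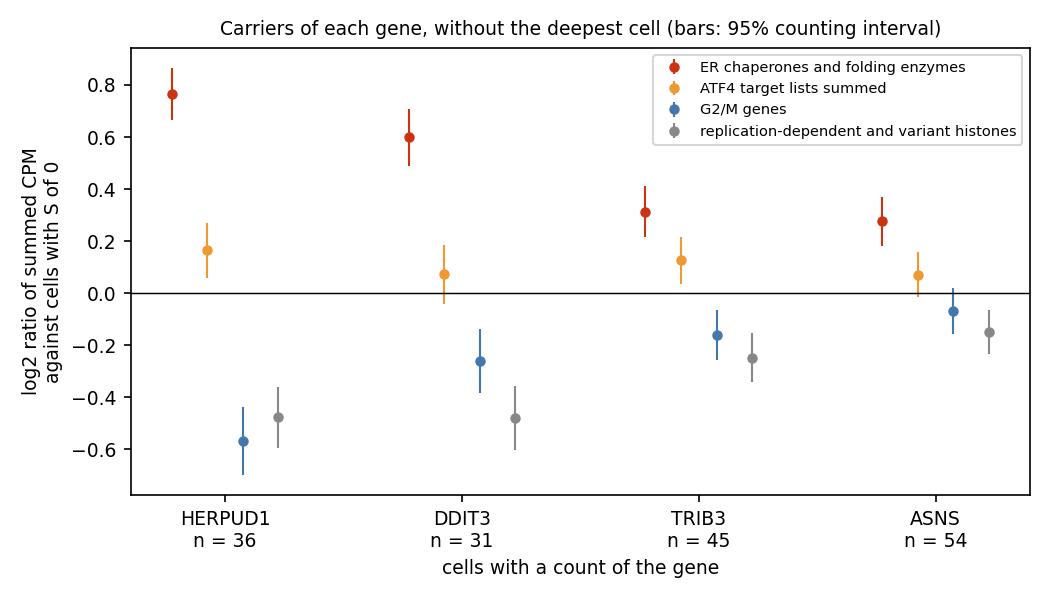
Log2 ratio of summed CPM against the 295 cells with an S of 0 for cells with a count of HERPUD1, DDIT3, TRIB3 or ASNS, without the deepest cell, for 4 gene lists with 95% counting intervals. The ER chaperone ratio (red) goes from 0.76 in HERPUD1 cells to 0.28 in ASNS cells.

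Single genes were named by how far the interval of their ratio lay from 0, the 15 farthest in each direction. Since they were chosen as extremes, their intervals make no allowance for that choice. Of those higher in A, 3 were the ER chaperones HSP90B1, HSPA5 and HYOU1, and TARS was among the rest. The chemokine gene CCL2 had 49 and 66 counts and 1.59 (1.03 to 2.14). It rested on few cells, as 24 of the counts in A came from 1 cell, and it stood at -0.17 in barcode set 1 against 2.39 in set 2. The endosomal gene EHD4 had 27 and 37 counts and 1.56 (0.79 to 2.32), with 1.62 and 1.59 in the sets and at most 4 counts in any A cell. CYR61, a matricellular protein gene, had 1.59 (0.74 to 2.41), FKBP1A, a prolyl isomerase of the cytosol, 1.00 (0.64 to 1.36), and the hypoxia factor EPAS1 1.48 (0.63 to 2.31).

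The deepest cell supplied much of several others. It held 13 of the 29 counts of the kinase gene TNK2 in A, 15 of 30 of the laminin gene LAMA5, 36 of 84 of PLEC (plectin), 28 of 80 of the biliverdin reductase gene BLVRA, 54 of 124 of the elongation factor gene EEF1A2 and 16 of 45 of the phosphatase gene PTPN14. Without it their ratios went from 1.52 to 1.00 for TNK2, from 1.47 to 0.80 for LAMA5, from 1.12 to 0.64 for PLEC, from 1.06 to 0.77 for BLVRA, from 0.94 to 0.45 for EEF1A2 and from 1.15 to 0.85 for PTPN14. LAMA5 then had an interval that reached 0 (-0.15 to 1.67). When the same rule was applied without that cell, 6 of the 15 genes were named again. The ER chaperones among the 15 then numbered 5, as HSP90B1 and HYOU1 were joined by PDIA4, MANF and SDF2L1. SRPR, of the ER receptor for the signal recognition particle, and OSTC, a subunit of the ER glycosylation enzyme, were named too, at 1.23 and 0.80.

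Genes named as lower in A included 3 of cell division. CDKN3, a phosphatase gene that peaks in mitosis, had 12 and 143 counts and -1.56 (-2.54 to -0.71), CENPL, a centromere gene, -1.96 (-3.88 to -0.53) and FAM64A, a mitotic regulator, -2.18 (-4.50 to -0.55). HIST1H4C and the histone chaperone gene NASP (-0.93, -1.44 to -0.46) stood beside them. The nuclear noncoding RNA MALAT1 had -1.02 (-1.60 to -0.49), and 14 of its 32 counts in A lay in the deepest cell. Without that cell it stood at -1.52 (-2.29 to -0.83). RET, a receptor gene of the sympathetic lineage, had 2 counts in A and 56 in B, a ratio of -2.79 (-5.87 to -0.87). Neither RET nor MALAT1 was lower in cells with an S of 1, at 0.54 (-0.17 to 1.21) and 0.33 (-0.00052 to 0.65) against B. CDKN3 (-0.38, -0.93 to 0.15) and HIST1H4C (-0.20, -0.32 to -0.09) lay below 0 there. The signalling adaptor gene SHD had 3 and 75 counts and -2.63 (-4.93 to -1.02).

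Some neuropeptide and growth factor genes were also named as lower, but the neuropeptide and hormone list was not lower as a whole. It stood at -0.04 (-0.18 to 0.09), or 0.23 (0.07 to 0.38) without INS-IGF2. Of its 8 genes compared, 4 lay above 0 and 4 (50%) were at least 1.5-fold lower, against a background of 8.97%. SCG2 had 0.38 (0.14 to 0.62) and VGF 0.58 (0.31 to 0.85), or 0.26 (-0.07 to 0.57) for VGF without the deepest cell. VIP had 10 and 117 counts (-1.53, -2.63 to -0.60), GCG 10 and 106 (-1.39, -2.49 to -0.45) and PTN 25 and 226 (-1.16, -1.82 to -0.56). The joint row of INS-IGF2 had 110 and 783 counts and -0.81 (-1.11 to -0.52), but 199 counts lay in 1 cell of B, and its ratio was 0.04 in barcode set 2. The 5 richest cells held 50.9% of the GCG counts and 46.5% of the VIP counts in A and B. The splicing gene PRPF31 had -1.30, the fatty acid desaturase gene SCD -1.63 and the membrane protein gene TMEM108 -2.15. Of the genes named, 13 of the 15 higher ones, all but CCL2 and EEF1A2, lay above 0 in both barcode sets. Of the 15 lower ones, 14 lay below 0 in both sets, all but INS-IGF2. Both sets entered the pooled choice.

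The single genes recurred little in the cells that the choice did not use. In the shallow cells, only 2 of the 15 higher genes lay above 0 and 3 had 0 counts in the 26 cells with an S of 1 or more, among them CCL2 (0 and 9 counts). Of the 15 lower genes 6 lay below 0, with CDKN3 at 2 and 37 counts and NASP at 8 and 69. The other lower genes lay above 0 there, opposite to their direction in A. For SHD (9 and 12 counts) and SCD (7 and 10 counts) the whole interval lay above 0. Their ratios were 2.06 and 1.96, with lower bounds of 0.63 and 0.33. The interval reached 0 for all 15 higher genes and for the remaining lower ones. Totals of 32479 and 180172 counts leave few counts per gene.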

How the data were processed

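The authors deposited 1 table of raw counts, with no normalization, and the files do not say if a count is a molecule or a read. Per the submitters' processing notes, the alignment used Bowtie2 2.1.0 and the build hg19. The choice of counting tool, annotation and cell filter was not given in the sources used here. Its columns are 603 cells and its rows 27043 genes, besides a row named unknown with 2 counts (0.00013% of all), which was left out. Doublets were not called, as the protocol in the labels sorts cells singly.

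Counts were summed over the cells of each group, and CPM was computed without the 6 genes of S. Ratios carry exact conditional binomial intervals, CPM exact Poisson intervals and shares exact Clopper-Pearson intervals, all at 95% and for counting error only. For a list at 0 the limit is 3 counts, which is 1-sided and lies under the upper Poisson bound. No test was run, since cells of 1 pool are not replicates. On simulated counts with known ratios the interval held the true ratio at no less than its stated rate. The simulated cells differed only in depth and counting error, so this says nothing of the spread between real cells. Per-cell values come from cells thinned without replacement to 1500 counts (seed 1).

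Genes with at least 50 counts in A and B were compared. Named genes were the 15 highest by the lower bound and the 15 lowest by the upper bound of the interval, with counts in at least 20 cells, and the 4 tested members of each stress list with the largest absolute log2 ratio. Others were named after their values were seen. The cells, their grouping and the 34 gene lists were chosen with earlier results of these data known. Symbols were matched to rows directly or by RefSeq synonyms, for 700 of 701 list entries. Alternatives changed the depth minimum, the S threshold, the weighting of cells, the genes of S, the gene minimum and the cells used. The comparison in shallow cells, the carriers of single genes, the column blocks and the naming without the deepest cell were added after seeing the data. Python 3.11.15, numpy 2.4.6, pandas 2.3.3, scipy 1.17.1 and matplotlib 3.10.9 were used.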

Additional observations from a re-analysis of the deposited data

How the results depend on the processing

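The ER chaperone sum stayed above 0 under all 18 alternatives run for it, from 0.37 in shallow cells to 0.80 with S taken from thinned counts. It was 0.76 with A at an S of 3 or more, 0.41 with A at 1 or more and 0.45 without HERPUD1 in S. The ATF4 sum stayed above 0 under its 18 alternatives (0.04 to 0.27), the highest with A at an S of 3 or more. The G2/M sum stayed below 0 under its 18. It was -0.48 at an S of 3 or more, -0.063 at 1 or more, -0.49 with cells weighted equally, -0.46 with thinned counts, -0.88 with S from thinned counts, -0.36 without the deepest cell, -0.37 without DDIT3 in S, -0.17 without HERPUD1 and -0.50 in shallow cells. The G1/S sum was -0.42 without the deepest cell, -0.038 without HERPUD1 in S and 0.062, the other way, in shallow cells. With S from thinned counts the deepest cell, then at an S of 0, moves to the negative cells.

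Counts of genes past 1.5-fold depended on depth and cell number, as did the number of genes compared. The main comparison had 307 higher and 317 lower of 3533. Higher genes numbered 464 of 3284 at an S of 3 or more and 471 of 3783 with S from thinned counts. They numbered 141 of 1953 with thinned counts, 105 of 1420 against matched B cells and 53 of 753 in shallow cells. In barcode sets 1 and 2 they numbered 166 of 2145 and 176 of 1831. Gene minimums of 20 and 100 counts gave 891 of 6140 and 91 of 1972, and 2-fold gave 48 of 3533. Lower genes numbered 152 of 4216 at an S of 1 or more and 951 of 3783 with S from thinned counts. They numbered 89 of 1420 against matched B cells, 188 of 1831 in set 2 and 99 of 753 in shallow cells. The gene minimums gave 840 of 6140 and 102 of 1972, and 2-fold gave 76 of 3533. Fewer genes reached the minimum where fewer cells or counts were used.

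Among single genes the sign turned with S from thinned counts for DNAJA3 (-0.14), EEF1A2 (-0.37), INS-IGF2 (0.41), LAMA5 (-0.50), NARS (-0.46), PTPN14 (-0.19), SRXN1 (-0.49) and TRAP1 (-0.026). It turned in set 1 for CCL2 (-0.17), EEF1A2 (-0.11) and SLC7A1 (-0.36), and in set 2 for INS-IGF2 (0.042) and STC2 (-0.14). LARS stood at 0.11 with A at an S of 1 or more and at 0.15 with thinned counts, where TRAP1 stood at -0.22. The cause was not tested. No paired analysis was possible because all cells form 1 pool and the columns carry no replicate number.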
